A study of Drosophila melanogaster with 16 samples.

Results

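A set of 8 genes with higher, widely spread levels in Chrom2-160R heads than in Chrom2-5R heads was followed through every library of the series. They are CG7214, CG7203, Acp1, CG8736, CG34327, CG13056, CG16884 and CG11458, which are 8 of the 17558 genes counted. They were picked by symbol for their change between 160R and 5R heads on chromosome 2, so their values in that comparison are given as a description and were not tested. In a fit of all 16 libraries they ranked 3, 6, 7, 9, 10, 14, 15 and 16 by log2 fold change among the 1735 genes called higher in Chrom2-160R. Rank in this fit alone therefore does not give the set, since genes outside it lie between its members. Any further filter used in the choice is not known.

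The libraries came from heads of male Drosophila melanogaster at 5 to 8 days after eclosion, grown on standard medium at 25 °C. Flies expressed a short (5R) or a long (160R) repeat from a transgene on chromosome 2 or chromosome 3, as a model of C9ORF72 disease, and the 5R flies are the controls within each insertion line. By insertion and repeat, the groups are called Chrom2-5R and Chrom2-160R, then Chrom3-5R and Chrom3-160R, each with 4 libraries. The sources used here do not name the driver of the transgene, the genetic background or the number of flies pooled. Nor do they state that replicates are separate crosses, so the p-values cover only how much these libraries vary, and that variation may be technical.

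The cuticle of a fly is a layer of chitin fibres and structural proteins secreted by the epidermis beneath it. Genes for adult cuticle proteins are known to be transcribed mainly in late pupae and in young adults, when the adult cuticle is built. Acp1 encodes an adult cuticle protein. CG16884 carries the current name Vajk3 and belongs to a small family of cuticular protein genes within the Nimrod gene cluster. CG13056 lies 524 bases from retinin, which encodes a protein of the corneal lens surface. The other 5 genes are named here by number only. All 8 are annotated as protein-coding, with coding lengths of 294 bases (CG11458) to 831 bases (CG16884).

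Library totals ran from 11452337 to 30496479 counts on chromosome 2 and from 42854987 to 53615117 on chromosome 3. Levels are CPM, counts scaled to library size with TMM factors, so a count of 3 corresponds to 0.283 CPM in the shallowest library and 0.0541 CPM in the deepest. A group of 3 libraries stood apart for these 8 genes: Chrom2-160R replicate 1, Chrom3-160R replicate 4 and Chrom3-5R replicate 2 each had the highest level of their group for all 8 members. Chrom2-5R replicate 4 was the highest of its group for 7 of them. The 10 markers of head neurons, photoreceptors and glia were detected in every library, at a summed 13100 to 24100 CPM. In whole heads, more cells of a type and more RNA per cell cannot be told apart.

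Acp1 (FBgn0014454; 2L, 7740562 to 7741537, minus strand, BDGP6) stood at 0.471, 0.558, 0.43 and 2.18 CPM in Chrom2-5R replicates 1 to 4 and at 136, 16.4, 23.2 and 15.0 CPM in Chrom2-160R. On chromosome 3 it stood at 0.202, 21.0, 1.64 and 0.361 CPM in Chrom3-5R and at 11.7, 14.3, 14.3 and 79.6 CPM in Chrom3-160R. The chromosome 2 groups did not overlap. On chromosome 3 a single 5R library, replicate 2, lay within the 160R range, and the other 5R libraries lay below it.

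CG7214 (FBgn0031940; 2L, 7743682 to 7744839, minus strand) lies next to Acp1 and had the largest change of the set on chromosome 2. Its level was 1.23, 0.812, 1.45 and 7.92 CPM in Chrom2-5R and 423, 140, 169 and 123 CPM in Chrom2-160R. It was 1.23, 143, 10.4 and 2.92 CPM in Chrom3-5R and 33.9, 73.2, 89.4 and 218 CPM in Chrom3-160R. Chrom3-5R replicate 2 was thus above 3 of the 4 Chrom3-160R libraries, at 2.18 times their mean, whereas Chrom3-5R replicate 1 was at the level of Chrom2-5R replicate 1.

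CG7203 (FBgn0031942; 2L, 7752170 to 7753186, minus strand) lies beyond CG7214. It stood at 10.3, 12.3, 12 and 38.7 CPM in Chrom2-5R and at 690, 186, 205 and 154 CPM in Chrom2-160R. On chromosome 3 it stood at 16.4, 193, 30 and 17.0 CPM in Chrom3-5R and at 89.0, 178, 176 and 433 CPM in Chrom3-160R. Again the chromosome 2 groups were apart, and replicate 2 of Chrom3-5R lay among the 160R libraries. Per kb of gene span, the mean level over Chrom2-160R replicates 2 to 4 was 179 CPM for CG7203, 124 CPM for CG7214 and 18.6 CPM for Acp1, against 18.0, 2.46 and 0.931 CPM per kb in Chrom2-5R. CG7203 had the highest level per kb of the 8 genes in both.

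**Figure D1:**
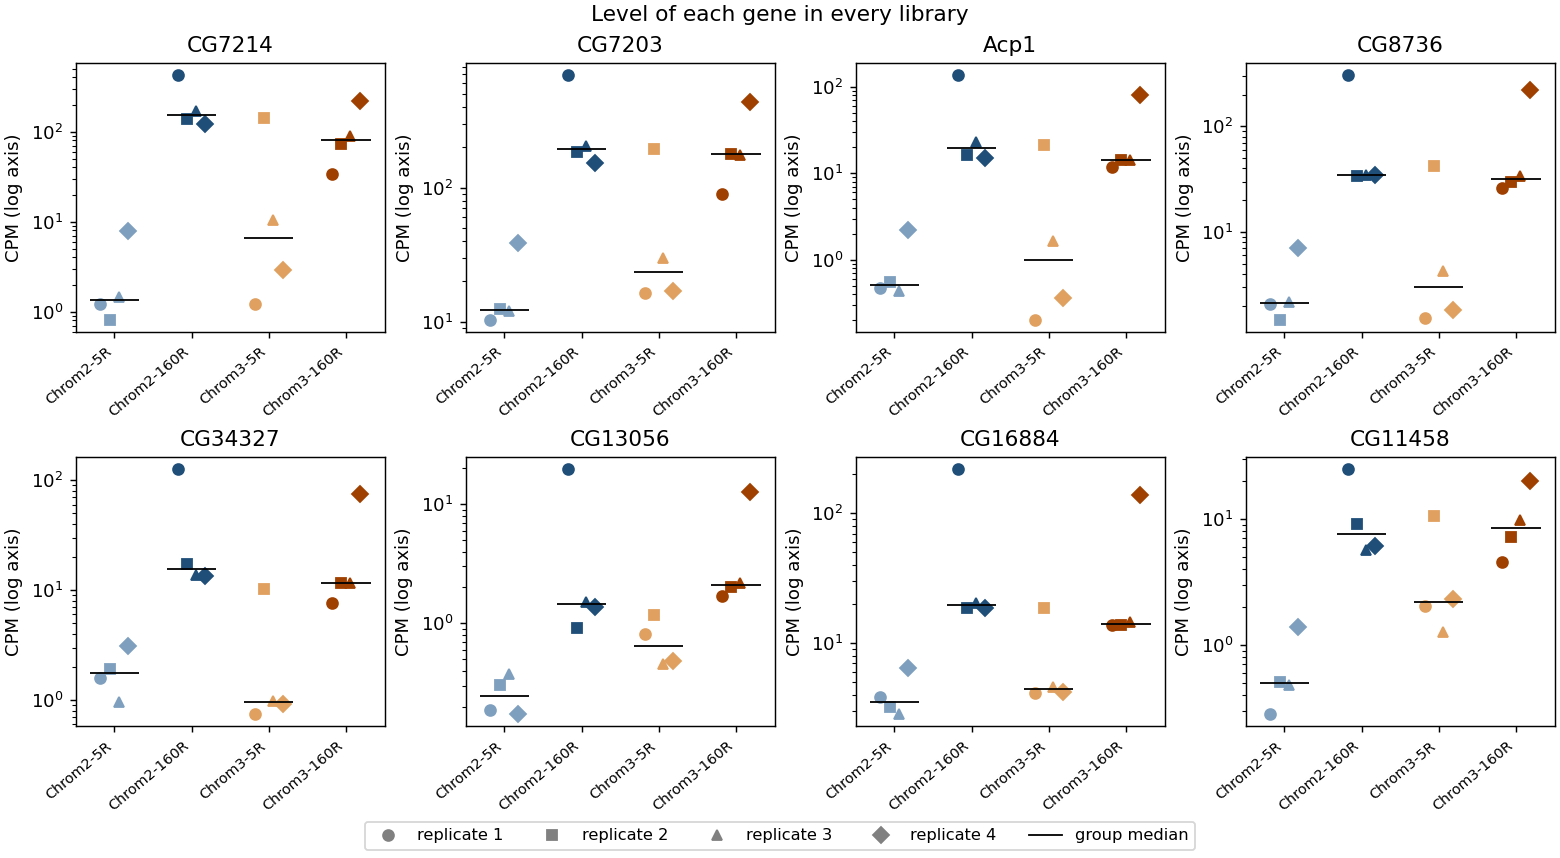
CPM (log axis) of each of the 8 genes in every library, by group. Each point is a library, its shape gives the replicate, and the horizontal line is the group median. Chrom2-160R replicate 1, Chrom3-160R replicate 4 and Chrom3-5R replicate 2 are the highest of their groups in all 8 panels, and the other Chrom3-5R libraries lie below Chrom3-160R.

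CG16884 (FBgn0028544, Vajk3; 2L, 13944756 to 13947476, minus strand) had levels of 3.86, 3.25, 2.85 and 6.48 CPM in Chrom2-5R and 218, 18.7, 20.5 and 18.7 CPM in Chrom2-160R. Its levels were 4.16, 18.8, 4.59 and 4.24 CPM in Chrom3-5R and 13.8, 13.7, 14.5 and 138 CPM in Chrom3-160R. Without the highest library, the libraries of each 160R group lay within a narrow band, and that library stood 11.3 times above the mean of the others on chromosome 2 and 9.82 times on chromosome 3. CG16884 lies inside Ance-3 on the opposite strand, whose deposited count is 5.83 times its own, so some of its low counts could be reads of the host. Ance-3 less the 4 genes lying inside it was at 50.6 to 64.6 CPM in all 16 libraries, including 51.5 CPM in Chrom2-160R replicate 1 and 64.6 CPM in Chrom3-160R replicate 4, while CG16884 was at its highest.

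CG13056 (FBgn0040794; 3L, 16333313 to 16333782, plus strand) had the lowest level per kb of span, at 0.555 CPM in Chrom2-5R and 2.7 CPM over Chrom2-160R replicates 2 to 4. It had 2, 6, 7 and 4 counts in Chrom2-5R, which is 0.188, 0.305, 0.376 and 0.174 CPM, and 19.5, 0.913, 1.52 and 1.37 CPM in Chrom2-160R. It stood at 0.808, 1.17, 0.457 and 0.487 CPM in Chrom3-5R and at 1.68, 2.03, 2.17 and 12.7 CPM in Chrom3-160R. This was the single member whose Chrom3-160R libraries all lay above all Chrom3-5R libraries. It was also the member in which Chrom3-5R replicate 2 and Chrom2-5R replicate 4 stood out least, at 2.01 and 0.601 times the mean of the others in their groups.

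CG8736 (FBgn0033308; 2R, 8594031 to 8595001, minus strand) was at 2.07, 1.47, 2.15 and 7.05 CPM in Chrom2-5R and at 304, 34.1, 34.6 and 34.7 CPM in Chrom2-160R. It was at 1.52, 42.5, 4.23 and 1.82 CPM in Chrom3-5R and at 26.2, 30, 33.9 and 219 CPM in Chrom3-160R. Chrom2-160R replicates 2 to 4 differed by less than 1 CPM (34.5 ± 0.301 CPM, SD, n = 3), while replicate 1 was 8.82 times their mean.

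CG34327 (FBgn0085356; X, 17222968 to 17223815, minus strand) was at 1.6, 1.93, 0.967 and 3.09 CPM in Chrom2-5R and at 125, 17.4, 13.8 and 13.3 CPM in Chrom2-160R. It was at 0.747, 10.3, 0.982 and 0.919 CPM in Chrom3-5R and at 7.57, 11.6, 11.7 and 75.5 CPM in Chrom3-160R. The order of group means was that of CG8736 and of all the other members. Chrom3-5R replicate 2, which raised the mean of its group, stood at the mean of Chrom3-160R replicates 1 to 3 (ratio 1.0).

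CG11458 (FBgn0040637; 3L, 20905795 to 20906331, plus strand) was at 0.283, 0.508, 0.484 and 1.39 CPM in Chrom2-5R, from 3 to 32 counts, and at 24.7, 9.18, 5.7 and 6.14 CPM in Chrom2-160R. It was at 2.04, 10.5, 1.26 and 2.31 CPM in Chrom3-5R and at 4.53, 7.17, 9.83 and 19.9 CPM in Chrom3-160R. It had the smallest excess of the highest library in Chrom3-160R, at 2.78 times the mean of the other 3.

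In the chromosome 2 comparison, which chose the genes, the log2 fold changes were 6.07 ± 1.55 (SE) for CG7214, 5.54 ± 1.7 for Acp1, 4.9 ± 1.5 for CG8736 and 4.41 ± 1.36 for CG34327. The others were 4.4 ± 1.49 for CG13056, 4.03 ± 1.27 for CG16884, 4.02 ± 0.995 for CG7203 and 3.92 ± 1.0 for CG11458. All 160R libraries lay above all 5R libraries for 8 of 8 members, as for 11.9% of the 13525 genes tested (12.8% were called higher). Replicate 1 supplied much of the size. It was 2.94 (CG7214) to 15.4 times (CG13056) the mean of Chrom2-160R replicates 2 to 4, and without it the members' median log2 change was 3.23 in place of 4.4. Replicates 2 to 4 alone were still 4.7 times (CG16884) to 50.5 times (CG7214) the Chrom2-5R mean. The members split by what replicate 1 added. CG7214, CG7203 and CG11458 were 2.94, 3.8 and 3.52 times higher there than in the other 3 libraries, against 7.5 to 15.4 times for the other 5 genes.

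Genes outside the set with the largest called rises on chromosome 2 shared the members' library pattern in part or not at all. Peb, a gene for a protein of the male ejaculatory bulb, was at 99.9 CPM in Chrom2-160R replicate 1 and 0.708 to 4.83 CPM in replicates 2 to 4. CG34324, CG14645 and Muc68D, a mucin gene, were highest in Chrom2-160R replicate 2, at 41.0, 49.0 and 46.5 CPM, and at 1.27, 1.72 and 1.77 CPM in replicate 1. None of these 4 reached 0.6 CPM in any chromosome 3 library. Peb thus shared the members' highest chromosome 2 library, and CG34324, CG14645 and Muc68D did not. The members differed from all 4 in being high in Chrom3-160R replicate 4 too.

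Chromosome 3 gives libraries outside the comparison by which the genes were chosen. Any further filter in the choice is not known, so its independence from these libraries is not certain. In edgeR's quasi-likelihood test on the 8 chromosome 3 libraries, 0 of 8 members passed a threshold of 0.05 on the adjusted p (Benjamini-Hochberg), where 1.05% of 13565 genes were called higher and 1.66% lower. Limma-voom also called 0 of 8 (1.14% of genes called higher). DESeq2 called 0 of the 4 members to which it gave an adjusted p (2.67% of genes called higher), and gave none to Acp1, CG8736, CG13056 and CG16884. At an unadjusted p below 0.05, 1 member, CG13056, was higher, against 9.92% of all genes. All 8 point estimates were positive, with a median log2 change of 2.44 over the members and 0.00187 over all genes tested. The members' median was 3.92 without Chrom3-5R replicate 2 and 1.22 without Chrom3-160R replicate 4.

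The errors were wide. CG34327 had the largest, 3.05 ± 1.26 (SE; edgeR adjusted p = 0.26), followed by CG13056 at 2.66 ± 0.899 (adjusted p = 0.184) and CG8736 at 2.63 ± 1.39 (adjusted p = 0.358). CG16884 was at 2.5 ± 1.12 and Acp1 at 2.39 ± 1.43 (edgeR adjusted p = 0.291 and 0.413). CG7203 was at 1.78 ± 1.02, CG7214 at 1.4 ± 1.47 and CG11458 at 1.37 ± 0.809 (edgeR adjusted p = 0.393, 0.661 and 0.409). Without Chrom3-5R replicate 2, CG7214 was at 4.45 ± 1.07 (edgeR adjusted p = 0.0868), Acp1 at 5.42 ± 1.33 (0.0914), CG8736 at 4.96 ± 1.28 (0.101) and CG34327 at 4.91 ± 1.32 (0.108). CG7203, CG16884, CG13056 and CG11458 were then at 3.38, 3.37, 2.98 and 2.45. Without Chrom3-160R replicate 4 instead, CG7214 was at 0.741 ± 1.59 and Acp1 at 1.23 ± 1.38 (edgeR adjusted p = 0.862 and 0.715). In that fit CG8736 was at 1.27 ± 1.24 and CG34327 at 1.68 ± 1.01 (edgeR adjusted p = 0.663 and 0.47). Whether the 2 insertion lines differ was not tested, since the chromosome 2 values chose the genes.

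**Figure D2:**
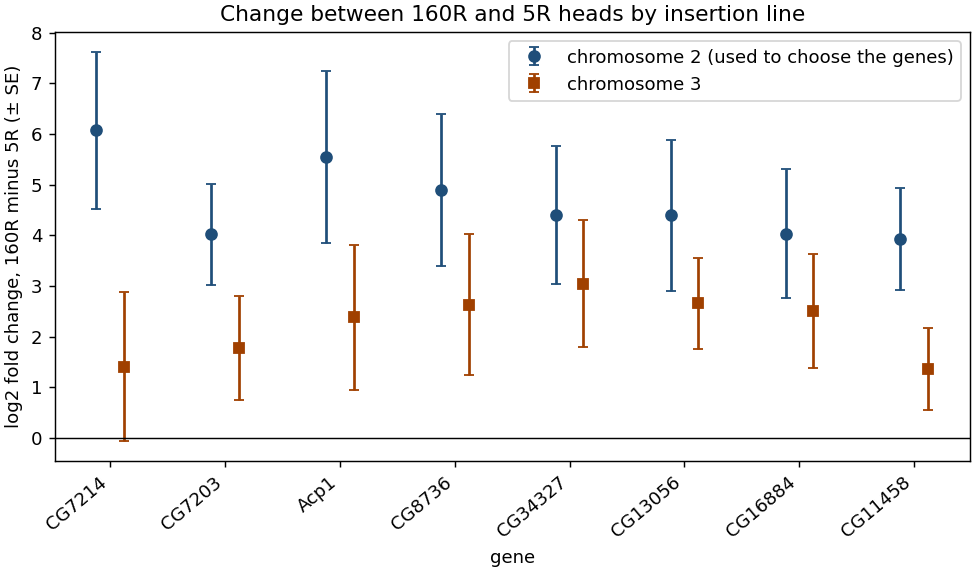
Log2 fold change between 160R and 5R heads for the 8 genes (160R minus 5R, y axis, with SE), on chromosome 2 (circles, the comparison that chose the genes) and on chromosome 3 (squares). All estimates lie above 0, and on chromosome 3 they run from 1.37 to 3.05 with SE of 0.809 to 1.47.

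Chrom3-5R replicate 2 bears on each of these values. It stood 2.01 times (CG13056) to 29.4 times (CG7214) above the mean of the other Chrom3-5R libraries, and at 0.598 to 2.18 times the mean of Chrom3-160R replicates 1 to 3. All Chrom3-160R libraries lay above all Chrom3-5R libraries for 1 of 8 members, and for 5.69% of genes. Without Chrom3-5R replicate 2 this held for 8 of 8 members, and for 11.7% of genes. That library was the highest of its group for all 8 members, so leaving it out favours separation, and the count is no independent support. In edgeR's test without that library 0 of 8 were called (adjusted p 0.0619 to 0.202, where 2.55% of genes were called higher). Without Chrom3-160R replicate 4, 1 member, CG13056, was called (1.42 ± 0.275; edgeR adjusted p = 0.0322, where 0.832% were called higher). Without both libraries, a choice made after their levels of these genes were seen, 6 of 8 were called, all but CG7214 and CG11458, where 3.20% of genes were called higher. Since these 2 libraries were left out for their levels of the members, that count is no independent support.

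Within groups the members had their high and low libraries largely in common. Each library's log2(CPM + 0.5) was taken as a deviation from its group mean, and the 28 pairs of members were compared. Over all 16 libraries Pearson's r ran from 0.422 (CG7214 with CG13056) to 0.986 (Acp1 with CG8736), with a median of 0.906. The spread within Chrom2-160R was part of what chose the genes, and taking deviations does not remove it, so these r are a description with no test. Without Chrom2-160R replicate 1, Chrom3-160R replicate 4 and Chrom3-5R replicate 2, r ran from -0.41 to 0.948, with a median of 0.644 over 13 libraries.

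The 8 chromosome 3 libraries, which lie outside the choice as far as it is stated, gave the test. The genes were chosen with earlier results of these data known. Whether co-movement in these libraries played a part in the choice is not known. By exact permutation within groups (two-sided), with adjustment over the pairs, 27 of 28 pairs passed 0.05 for r and 13 of 28 for rho. The median r was 0.895 and the median rho 0.595. How many pairs of other genes would pass in these libraries was not tested, so the counts have no baseline. Over 13525 genes, Chrom3-5R replicate 2 and Chrom3-160R replicate 4 also deviated alike (r = 0.322). Acp1 and CG8736 had the highest r (0.994, exact permutation p = 0.00174, adjusted 0.0081; rho = 1.0, p = 0.00174, adjusted 0.00812), where 0.00174 is the smallest p that these permutations can give. CG7214 and CG13056 had the lowest (r = 0.476, exact permutation p = 0.0712, adjusted 0.0712; rho = 0.381, p = 0.212, adjusted 0.247). Without the 2 libraries farthest from the median of the first gene of a pair, r was above 0.7 in 11 pairs and below 0 in 9, with a median of 0.47. For those 9 pairs, which all include CG13056, CG16884 or CG11458, the relation rested on the libraries left out.

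**Figure D3:**
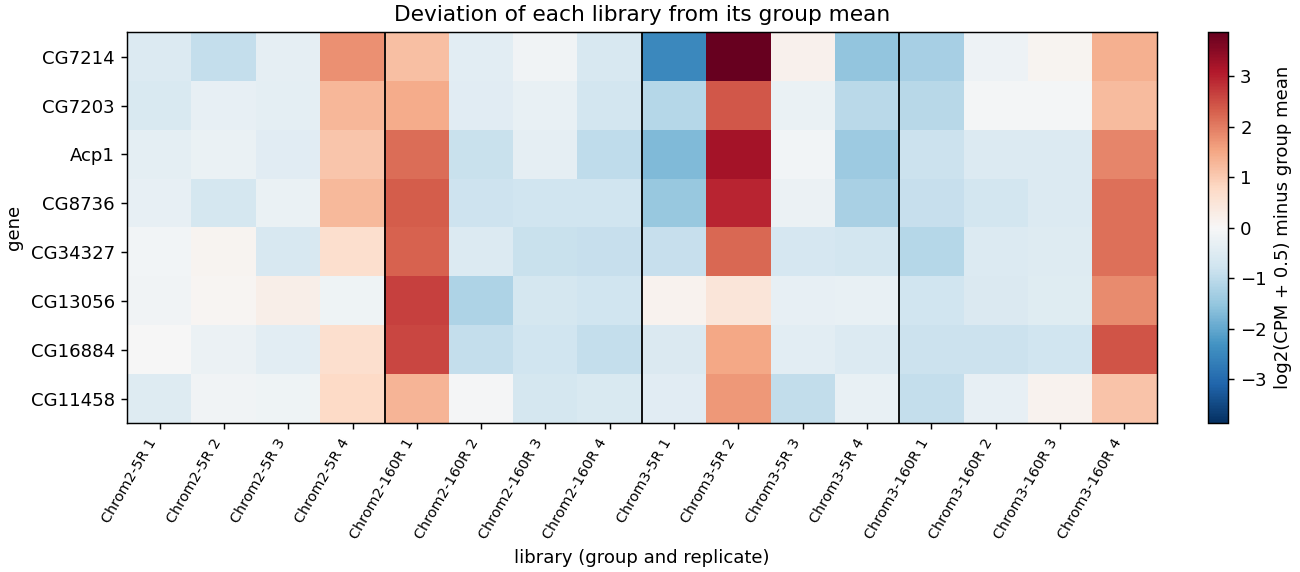
Deviation of each library from its group mean for the 8 genes, in log2(CPM + 0.5); columns are libraries, rows are genes, and black lines separate the groups. Chrom2-160R replicate 1, Chrom3-5R replicate 2 and Chrom3-160R replicate 4 are positive in all 8 rows, and Chrom2-5R replicate 4 in 7.

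**Figure D4:**
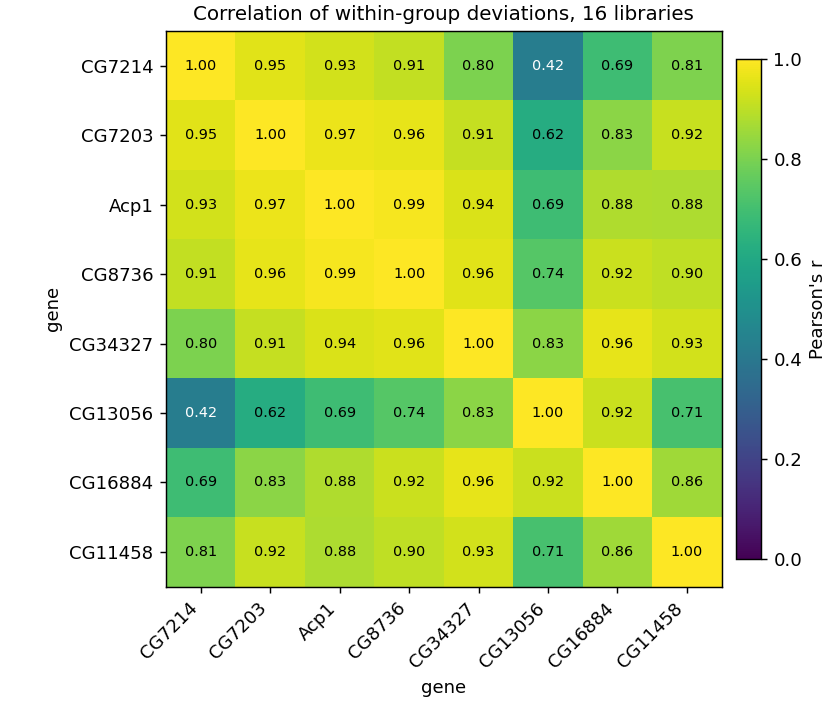
Pearson's r between the within-group deviations of each pair of the 8 genes over 16 libraries. Values run from 0.42 (CG7214 with CG13056) to 0.99 (Acp1 with CG8736), and the 2 lowest are in the CG13056 row.

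Acp1, CG7214 and CG7203 lie near each other on 2L, all on the minus strand. Over the 8 chromosome 3 libraries their deviations had r = 0.966 for Acp1 with CG7214 (exact permutation p = 0.00174, adjusted 0.0081; rho = 1.0, p = 0.00174, adjusted 0.00812; r = 0.913 without the 2 farthest libraries). For CG7203, r was 0.977 with Acp1 and 0.974 with CG7214 (exact permutation p = 0.00347 and adjusted 0.0081 for both), and rho was 0.881 for both (p = 0.00347, adjusted 0.0108). Without the 2 farthest libraries these r were 0.809 and 0.971. Acp1 had a like r with CG8736 on 2R (0.994, and 0.989 without the 2 farthest libraries).

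The genes around them differed in level and in change. CG7211, on the opposite strand between CG7214 and CG7203, was at a mean of 0.031 to 0.098 CPM in the 4 groups, and CR45718, which begins 17 bases beyond CG7203, at 0.0201 to 0.063 CPM. Both were below the filter on low counts. CG31904, 1753 bases beyond Acp1, was at 0.0127 ± 0.0254 CPM in Chrom2-5R and 0.582 ± 0.865 CPM in Chrom2-160R, and at 0.113 ± 0.183 and 0.49 ± 0.503 CPM on chromosome 3 (SD, n = 4). It was not called on chromosome 2 (edgeR adjusted p = 0.132) and not tested on chromosome 3, although its deviations followed those of the members (r = 0.884 over 16 libraries).

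Farther out, CG13796 (7892 bases from Acp1) was not called on either chromosome (0.656 ± 0.373 and 0.517 ± 0.287; edgeR adjusted p = 0.224 and 0.372), although its r with the members was 0.715 and it was highest in Chrom2-160R replicate 1 (13.8 CPM) and Chrom3-160R replicate 4 (14.5 CPM), against 4.44 to 6.92 CPM in the others. Also not called was CG46025, which begins 988 bases beyond CG7203 (0.723 ± 0.34 and 0.404 ± 0.201; edgeR adjusted p = 0.13 and 0.296). CG13794 fell on chromosome 2 (-0.357 ± 0.1; edgeR adjusted p = 0.015) and rose on chromosome 3 (0.435 ± 0.0524; edgeR adjusted p = 0.00114). CG13793, CG13795, CR46074 (an antisense gene whose reads cannot be told apart from those of CG13795) and CG7191 were not called on either chromosome, and CG7179 did not pass the filter. Of the 11 genes within 25 kb of the 3 members, 8 were tested on chromosome 2, where 0 were called higher and 1 lower by edgeR (12.8% and 13.3% of all genes), and 7 on chromosome 3, where 1 was called higher and 0 lower.

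**Figure D5:**
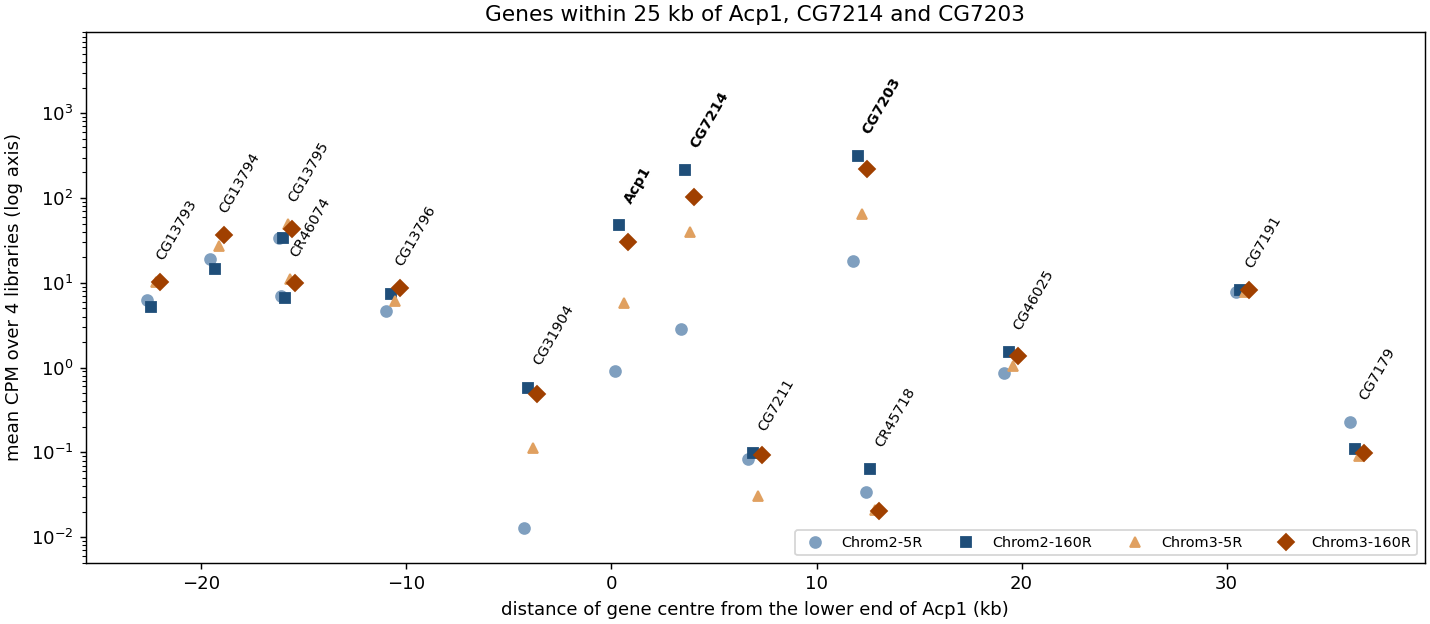
Mean CPM over 4 libraries (log axis) for genes within 25 kb of Acp1, CG7214 and CG7203, against the distance of each gene's centre from the lower end of Acp1 in kb. Colours and shapes give the group. The 3 members (bold) are spread over a wide range between groups, with the low CG31904 beside them, while CG7211 between them stays below 0.1 CPM.

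Around the other 5 members a few neighbours were like them. CG16885, now named Vajk2, lies 10064 bases from CG16884 in the same host gene and was at 17.2 ± 5.29 CPM in Chrom2-5R and 126 ± 176 CPM in Chrom2-160R (2.85 ± 1.0; edgeR adjusted p = 0.0541; r = 0.89 with the members), while CG16886, now Vajk1, the remaining family member in this host, was at 29.2 ± 1.75 and 26.9 ± 3.51 CPM. NimB3 had a higher r of 0.939 but no called change (0.393 ± 0.199; edgeR adjusted p = 0.16). Beside CG34327, CG12998 was at 0.0758 ± 0.0674 CPM in Chrom2-5R and 5.79 ± 10.1 CPM in Chrom2-160R, and CG5172 at 0.0606 ± 0.0229 and 3.92 ± 7.02 CPM (SD, n = 4), neither being called (edgeR adjusted p = 0.107 and 0.116). On chromosome 3 CG12998 and CG5172 were not called either (4.36 ± 1.75 and 5.03 ± 1.91; edgeR adjusted p = 0.248 and 0.227). Both were highest there in Chrom3-160R replicate 4, at 19.9 and 11.1 CPM.

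Beside CG13056, Nplp3 and CG13041 had the highest r (0.919 and 0.854) and were not called on chromosome 2 (0.935 ± 0.326 and 0.131 ± 0.495; edgeR adjusted p = 0.0521 and 0.887). The nearest gene, retinin, named after its values were seen, rose from 447 ± 63.8 to 810 ± 190 CPM (0.858 ± 0.242; edgeR adjusted p = 0.0204). Beside CG8736, CG14752 was not called (1.5 ± 1.13; edgeR adjusted p = 0.373) and CG42326 rose (0.824 ± 0.12; edgeR adjusted p = 0.000166). CG11458 had a single tested neighbour, CG10589, which rose by 0.419 ± 0.134 (edgeR adjusted p = 0.029). These rises are on chromosome 2, and on chromosome 3 retinin, CG42326 and CG10589 were not called (edgeR adjusted p = 0.434, 0.169 and 0.446). Counting all 75 neighbours of the 8 members, 48 were tested on chromosome 2, with 10 called higher (20.8%, against 12.8% of all genes) and 4 lower (8.33%, against 13.3%), and 47 on chromosome 3, with 3 called higher and 1 lower (6.38% and 2.13%, against 1.05% and 1.66%).

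The genes whose within-group deviations were most like the mean of the members, among the 13525 tested, were Cpr100A (r = 0.984 over 16 libraries), serp (0.971), Cpr97Eb (0.962), obst-B (0.959), GlyP (0.954), Mpc1 (0.95), GlyS (0.947) and AQP (0.943). Cpr100A and Cpr97Eb encode chitin-binding cuticle proteins, serp a chitin deacetylase and obst-B a chitin-binding protein. GlyP and GlyS are glycogen phosphorylase and glycogen synthase, Mpc1 is a carrier of pyruvate into mitochondria and AQP is of the aquaporin family. These r are a description with no test, over libraries that include those which chose the members, and over all genes the median r was 0.00825 and the 99th percentile 0.876.

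The size of the change split the 8. Cpr100A went from 3.33 ± 1.45 CPM in Chrom2-5R to 41.1 ± 44.4 CPM in Chrom2-160R and rose (3.55 ± 1.05; edgeR adjusted p = 0.0258), as did serp (2.36 ± 0.709; adjusted p = 0.0283) and Cpr97Eb (2.54 ± 0.803; adjusted p = 0.0345). AQP rose less (0.546 ± 0.184; edgeR adjusted p = 0.0425), and obst-B, GlyP, GlyS and Mpc1 were not called (edgeR adjusted p = 0.0609, 0.209, 0.11 and 0.825). Cpr100A had the library pattern of the members in CPM too, at 107 in Chrom2-160R replicate 1, 89.4 in Chrom3-160R replicate 4 and 19.7 in Chrom3-5R replicate 2 against 3.77 to 3.95 in the other Chrom3-5R libraries. None of the 8 was called on chromosome 3 (edgeR adjusted p 0.234 to 0.691).

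Gene lists cover other cuticle genes and other tissues. Over all genes 12.8% rose and 13.3% fell on chromosome 2, and 1.05% rose and 1.66% fell on chromosome 3. Of 98 cuticle protein genes outside the set, 57 were tested on chromosome 2, where 9 rose (15.8%) and 1 fell (1.75%) by edgeR with a median log2 change of 0.223, and 57 on chromosome 3, where 2 rose, Cpr57A (0.439 ± 0.0481; edgeR adjusted p = 0.000627) and Cpr67B (0.281 ± 0.055; 0.0211), and 0 fell. Over all genes the median log2 changes were 0.0112 and 0.00187. The r of these 57 genes with the members ran from -0.588 to 0.984 with a median of 0.407, and 5 of them were above 0.9. Of 24 genes of chitin synthesis, chitin breakdown and tanning, 9 rose (37.5%) and 2 fell (8.33%) on chromosome 2 and 0 were called on chromosome 3, with a median r of 0.813.

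Of the markers of other tissues, those of muscle moved most with the same libraries. The 22 muscle genes had a median r of 0.864 with the members, 9 rose (40.9%) and 0 fell on chromosome 2, and 0 were called on chromosome 3. Their summed level was 6830 to 7980 CPM in Chrom2-5R, 8580 to 8800 CPM in Chrom2-160R replicates 2 to 4 and 14300 CPM in replicate 1. It was 6070 to 7250 CPM in Chrom3-5R, with replicate 2 the highest, and 6100 to 9620 CPM in Chrom3-160R, with replicate 4 the highest. No muscle gene was at 0 in any library.

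The 19 male reproductive tract genes, Peb among them, summed to 142 CPM in Chrom2-160R replicate 1, to 10.9 to 16.9 CPM in the others of that group and to 7.92 to 11.8 CPM in the other groups, with up to 8 genes at 0 in a library. Chrom3-160R replicate 4 was at 10 CPM and Chrom3-5R replicate 2 at 11.1 CPM, against 10.4 to 11.8 CPM in the other chromosome 3 libraries. Of the 9 tested on chromosome 2, 3 rose (33.3%) and 0 fell, and of 8 on chromosome 3, 0 were called. The 6 larval fat body genes summed to 261 to 946 CPM in Chrom2-5R and 84.5 to 438 CPM in Chrom2-160R, with replicate 1 the highest. On chromosome 3 they summed to 1090 to 2130 CPM in Chrom3-5R, with replicate 2 the highest, and 271 to 768 CPM in Chrom3-160R, with replicate 1 the highest. Lsp2 and Lsp1beta supplied most of each sum. Lsp2, Lsp1beta and Lsp1alpha had lower means in 160R on both chromosomes, and Lsp1gamma, Fbp1 and Fbp2 higher. Fbp1 was at 13.9 CPM in Chrom2-160R replicate 1 and 14.3 CPM in Chrom3-160R replicate 4. The median r of the 6 genes was 0.659, and 0 rose and 1 fell (16.7%) on chromosome 2, with 0 called on chromosome 3. Of the 10 head neuron, photoreceptor and glial genes 3 rose and 1 fell on chromosome 2, 0 were called on chromosome 3, and the median r was -0.0328. The part of these tissues in the members' levels was not tested.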

How the data were processed

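The authors deposited whole-number read counts per gene for each library, not normalised; per the submitters' processing notes, Trimmomatic, STAR, bedtools and DESeq and the builds BDGP6 and mm10 were used, with no roles or versions stated. Per the labels' protocols, strand-specific libraries were made from total RNA with no poly(A) step. Each count covers a whole gene span, so overlapping genes can share reads. Coordinates are those of the deposited files, and all 8 members have the same span in release 115 of the BDGP6 annotation, which also gave the coding lengths.

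Counts were tested with edgeR 4.0.16 (R 4.3.3; filterByExpr, TMM, robust quasi-likelihood), tested first on simulated data. The 8 chromosome 3 libraries were fitted alone, because the chromosome 2 libraries chose the members. All 8 members passed the filter there and among all 16 libraries. The chromosome 2 values come from a fit of 4 group means over 16 libraries. DESeq2 1.42.0, limma-voom 3.58.1, RLE scaling, other filters, a replicate block and left-out libraries were alternatives. SE is the log2 change divided by the square root of F. Correlations used a pseudocount of 0.5 CPM and two-sided permutations within groups, exact over the 8 chromosome 3 libraries, whose values are the ones printed as tests; the planned 16-library test (100000 permutations) is given as counts only, since it holds the Chrom2-160R spread by which the members were chosen.

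The members and lists were chosen with earlier results of these data known. Genes named besides the members are those within 25 kb (the 2 most alike per neighbourhood), the 8 most alike in deviations, the 4 largest called rises outside the set on chromosome 2 and up to 3 called genes per list on chromosome 3. Same-numbered libraries did not deviate together (r = 0.0713, -0.121, -0.249 and -0.175 for replicates 1 to 4 on chromosome 3), so numbers only name samples. The highest r between a 5R and a 160R library on chromosome 3 was 0.322 over 13525 genes, for Chrom3-5R replicate 2 with Chrom3-160R replicate 4. A likeness of these 2 libraries is thus not particular to the members. The floor of 3 counts covers counting error only, while SE and SD hold the variation between libraries.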

Additional observations from a re-analysis of the deposited data

Results flagged for a closer look

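Within groups of 4 libraries, a highest library was far from the nearest of the others, by Dixon's ratio above its 95% critical value, in 23 of 32 combinations of member and group. Of these, 7 are in Chrom2-160R, whose wide spread was part of the choice of genes and is a description only; in the other groups it was 16 of 24. The ratios were taken on CPM, not on log values. The critical value flags about 1 in 20 groups by chance only where values are normally distributed. That was not tested for these CPM values, so 1 in 20 is no baseline for the counts above. The combinations are not independent, since the same 4 libraries recur.

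In Chrom2-160R, replicate 1 was far above the rest (ratio in parentheses) for CG7214 (0.845), CG7203 (0.904), Acp1 (0.932), CG8736 (0.998), CG34327 (0.963), CG13056 (0.967) and CG16884 (0.991). In Chrom3-160R, replicate 4 was far above the rest for Acp1 (0.961), CG8736 (0.96), CG34327 (0.939), CG13056 (0.955) and CG16884 (0.993). In Chrom3-5R, replicate 2 was far above the rest for CG7214 (0.935), CG7203 (0.923), Acp1 (0.931), CG8736 (0.934), CG34327 (0.976), CG16884 (0.971) and CG11458 (0.887). In Chrom2-5R, replicate 4 was far above the rest for CG7214 (0.91), CG7203 (0.928), Acp1 (0.926) and CG8736 (0.878).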

How the results depend on the processing

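On chromosome 3, 0 of 8 members were called, and this held under RLE scaling, no filter, a stricter filter, limma-voom, all 16 libraries in a fit and the replicate block; DESeq2 gave 0 of the 4 members with an adjusted p; leaving out 1 library gave 0 to 1. With both Chrom3-5R replicate 2 and Chrom3-160R replicate 4 left out, chosen after seeing the data, it was 6. Genes called in all numbered 368, 833 with DESeq2, 272 with the replicate block, 182 (without Chrom3-160R replicate 2) to 707 (without Chrom3-5R replicate 2) with 1 library left out and 818 with those 2 left out. Of the single members' values under these settings, 117 kept their side of the threshold and 7 passed it, all with Chrom3-160R replicate 4 left out; none changed sign. The members' median log2 change on chromosome 2 was 3.23 to 4.77 with 1 library left out. Of 28 pairs, 28 passed for r within groups over 16 libraries, 28 with a pseudocount of 2 CPM and 22 without Chrom2-160R replicate 1. The count was 17 without that library and Chrom3-160R replicate 4. It was 5 without these and Chrom3-5R replicate 2, the last chosen after seeing the data. All these counts hold Chrom2-160R libraries, whose spread was used to choose the genes, so they are a description and no support. On chromosome 3 alone 27 passed. The median r was 0.906 over 16 libraries, 0.867 over 15, 0.915 over 14 and 0.644 over 13. Fewer libraries allow fewer permutations, so a lower count alone does not show weaker co-movement. The cause of these differences was not tested. The lowest members rest on 2 to 7 counts (CG13056) and 3 to 32 counts (CG11458) per Chrom2-5R library, so their folds against that group are imprecise.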
